A study of Mus musculus with 6 samples.

Results

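The genes described here are 10 markers of the cartilage and bone lineages, taken by name from a table of 38553 mouse genes, in which each name matched 1 row. They comprise the cartilage transcription factors Sox9, Sox5 and Sox6, the cartilage matrix genes Acan and Matn1, the bone transcription factors Runx2 and Sp7, and the bone matrix and mineralization genes Alpl, Ibsp and Spp1. Their RNA levels were compared between embryos with and without a conditional deletion of Rbfox2, which encodes an RNA binding protein that regulates alternative splicing. RNA came from craniofacial tissue microdissected at E12.5, in mid gestation, with 3 independent biological replicates per group. By the labels, the Control embryos carried Rbfox2 flox/flox and the mutant embryos were Pax3Cre/+:Rbfox2 flox/flox, so the floxed alleles were shared by both groups. The methods of the paper also count Rbfox2 flox/+ embryos, with or without Cre, among the controls of the study. They do not say which of these were sequenced. All mice were on a mixed genetic background. The Cre is a knock-in at Pax3 that acts in neural crest cells and also in paraxial mesoderm and somite derivatives, and since the labels give it for the mutants alone, effects of the Pax3Cre allele and of the Rbfox2 deletion cannot be told apart.

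In craniofacial mesenchyme, cells of neural crest origin gather into condensations and then form either cartilage or bone. Sox9 is the factor required for cartilage formation, and Sox5 and Sox6 act with it on matrix genes such as Acan, which encodes the proteoglycan aggrecan, and Matn1, which encodes the cartilage matrix protein matrilin 1. Runx2 starts the osteoblast program and Sp7, also called osterix, is needed after it. Alpl encodes tissue-nonspecific alkaline phosphatase, an enzyme needed for mineralization, whereas Ibsp and Spp1 encode bone sialoprotein and osteopontin, phosphoproteins of mineralized matrix.

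The promoters of the 4 secreted matrix proteins are shown because their genes, apart from Spp1, varied most between samples, and because Ibsp and Spp1 lie 123.648 kb apart on chromosome 5. Promoter sequences (RefSeq, GRCm38.p6) were found for 8 of the 10 genes, and those below run from 250 bases before to 50 bases after the most 5′ start site listed. Capitals mark every match, on either strand, to ACCACA (the core bound by RUNX factors), ACAAAG (a core sequence bound by SOX factors), its close variant ACAATG, and the TATA box letters TATAAA. The RUNX and first SOX letters can overlap, which they did not do in these windows.
Acan, chr7:79052976-79053275, plus strand: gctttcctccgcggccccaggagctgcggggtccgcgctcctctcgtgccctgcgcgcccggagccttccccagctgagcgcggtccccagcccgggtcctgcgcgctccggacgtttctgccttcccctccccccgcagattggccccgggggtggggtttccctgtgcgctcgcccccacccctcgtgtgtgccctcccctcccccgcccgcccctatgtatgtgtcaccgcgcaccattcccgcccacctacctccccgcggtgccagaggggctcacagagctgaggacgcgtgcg
Matn1, chr4:130944135-130944434, plus strand: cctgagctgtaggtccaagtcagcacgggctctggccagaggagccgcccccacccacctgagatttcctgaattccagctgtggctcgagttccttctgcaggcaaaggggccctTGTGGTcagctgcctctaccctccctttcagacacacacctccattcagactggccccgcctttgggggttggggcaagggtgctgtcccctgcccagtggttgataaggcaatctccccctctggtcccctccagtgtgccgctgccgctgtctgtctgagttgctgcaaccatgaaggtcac
Ibsp, chr5:104299037-104299336, plus strand: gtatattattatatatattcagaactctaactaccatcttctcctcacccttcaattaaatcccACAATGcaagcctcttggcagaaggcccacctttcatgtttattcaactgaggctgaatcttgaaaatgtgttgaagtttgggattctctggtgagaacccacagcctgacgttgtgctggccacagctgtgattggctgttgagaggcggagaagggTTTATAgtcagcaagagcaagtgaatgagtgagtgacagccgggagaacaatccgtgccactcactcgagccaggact
Spp1, chr5:104434861-104435160, plus strand: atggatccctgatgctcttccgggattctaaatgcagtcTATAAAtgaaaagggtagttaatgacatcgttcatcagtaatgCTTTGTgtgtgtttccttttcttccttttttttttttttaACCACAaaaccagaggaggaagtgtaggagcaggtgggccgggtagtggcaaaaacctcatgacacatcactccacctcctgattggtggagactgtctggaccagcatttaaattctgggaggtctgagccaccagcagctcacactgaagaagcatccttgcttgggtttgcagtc

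The Acan window held no match to the 4 motifs. The Matn1 window held 1 RUNX core on the minus strand, 134 bases before the start site, and the Spp1 window held 1 on the plus strand, 128 bases before it. The Ibsp window held ACAATG 186 bases and a minus-strand TATAAA 28 bases before its start site, and the Spp1 window also held a minus-strand ACAAAG at 168 and TATAAA at 211 bases. Each motif is common: among 32851 mouse promoters of the same length, 16.8% held ACCACA, 18.7% ACAAAG, 12.6% ACAATG and 13.6% TATAAA. These matches are letters in a window and were not tested as binding sites.

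Levels are given as FPKM, the number of fragments scaled by transcript length and library size, which allows levels of different genes to be set side by side. The number of reads behind each value is unknown. Rbfox2 itself served as a check of the labels, with 58.4, 65.0 and 61.3 FPKM in Control replicates 1, 2 and 3 and 38.1, 36.3 and 34.3 FPKM in mutant replicates 1, 2 and 3. The mutant mean was 58.8% of the control mean and the groups did not overlap. On the log2(FPKM + 1) scale the difference was -0.75 (SE 0.079), with an exact permutation p of 0.1, the smallest that 3 against 3 allows, and an adjusted p of 0.138 in limma. The first replicate of each genotype lay away from the other 4 samples: on the first principal component of all genes tested (54.7% of the variance) they lay at -19.1 and -17.0 and the others between 7.55 and 11.0. Y-linked genes, at a mean of 14.4 and 13.9 FPKM in mutant replicates 1 and 2 and at most 0.0541 in the other samples, show that sex was not balanced between the groups. Of 13 cranial mesenchyme markers, 12 passed a filter of more than 5 FPKM in all samples of either group, and all 11 neuron markers passed as well.

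For none of the 10 genes did the difference between the groups pass the test against the spread of the replicates. Sox9 had the highest level in this set with a mean of 21.5 FPKM, followed by Runx2 with 10.7, Alpl with 10.04, Sox5 with 9.79 and Sox6 with 7.36. Sp7 averaged 4.28 FPKM, Spp1 3.14, Acan 1.87, Matn1 1.59 and Ibsp 0.276. The lowest Sox9 value lay above the highest value of every other member, and the highest Sp7 value lay below the lowest Sox6 value. All other neighbours in this order overlapped between samples.

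**Figure D1:**
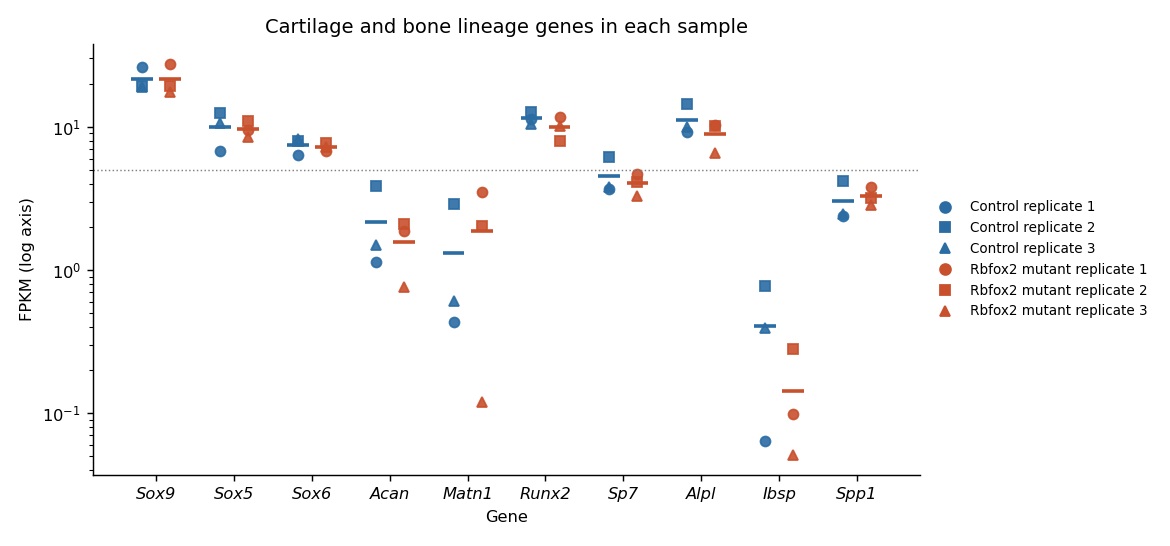
FPKM (log axis) of each gene in the 3 Control and 3 Rbfox2 mutant samples, with 1 symbol per replicate number, short lines at the group means and a dotted line at the filter of 5 FPKM. Control and mutant points overlap for all 10 genes, and Matn1, Ibsp and Acan show the widest spread within groups.

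The filter was passed by 5 members, Sox9, Sox5, Sox6, Runx2 and Alpl, and the other 5 were read from a fit of all 23063 genes with a value above 0. At an unadjusted p under 0.05 by limma, 0 of the 10 members were called, against 1.66% of the 10061 genes that passed the filter and 2.87% in the fit with no filter. After adjustment, 0.00% of the 10061 genes passed. The ranges of the control and mutant samples overlapped in all 10 members, whereas they did not overlap in 5.0% of the genes that passed the filter and in 6.34% of all genes with a value above 0. By mean log2 level, 7 members were lower and 3 higher in the mutants. Their median difference was -0.078, beside -0.0014 for all genes with a value above 0. Over the 5 members that passed the filter it was -0.037, beside 0.0057 for all genes that passed.

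Among the cartilage transcription factors, Sox9 (chr11:112782224-112787760, plus strand, GRCm38) was measured at 26.2, 19.4 and 19.0 FPKM in Control replicates 1 to 3 and at 27.6, 19.4 and 17.5 FPKM in mutant replicates 1 to 3. Replicate 1 was the highest sample of each group and the groups had nearly equal means, 21.5 ± 4.03 and 21.5 ± 5.37 FPKM (SD, n = 3 each). The log2 difference was -0.01 (SE 0.19; limma, p = 0.944; exact permutation p = 1), and 2 standard errors on each side span -0.39 to 0.37.

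Sox5 (chr6:143828425-144781977, minus strand) was at 6.74, 12.4 and 10.54 FPKM in the controls and 9.55, 11.0 and 8.51 FPKM in the mutants. Its lowest and highest samples were both controls, and all mutant values lay between them. The log2 difference was 0.01 (SE 0.20; limma, p = 0.980; exact permutation p = 1). Sox6 (chr7:115470872-116038796, minus strand) varied least of the 10 genes, from 6.34, 7.91 and 8.20 FPKM in the controls to 6.77, 7.67 and 7.27 FPKM in the mutants. Its highest sample exceeded its lowest 1.29-fold, close to the median of 1.28-fold for the genes tested. The log2 difference of Sox6 was -0.04 (SE 0.11; limma, p = 0.747; exact permutation p = 0.7).

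The cartilage matrix genes were low and uneven. Acan (chr7:79053483-79115099, plus strand) was at 1.14, 3.83 and 1.501 FPKM in the controls and 1.87, 2.10 and 0.762 FPKM in the mutants. Control replicate 2 was highest and mutant replicate 3 lowest, a 5.03-fold range. The log2 difference of Acan was -0.24 (SE 0.37; limma with no filter, p = 0.535; exact permutation p = 0.7). Matn1 (chr4:130944385-130955475, plus strand) was at 0.435, 2.87 and 0.612 FPKM in the controls and 3.50, 2.02 and 0.119 FPKM in the mutants. Its highest and lowest samples were both mutants and differed 29.4-fold, wider than all but 0.501% of the 3394 genes with a mean of 1 to 5 FPKM, whose median range was 1.56-fold. The log2 difference of Matn1 was 0.25 (SE 0.61; limma with no filter, p = 0.691; exact permutation p = 0.9), which was smaller than its error.

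Matn1 was set beside markers of the otic epithelium. Oc90, an otoconial protein gene singled out from that list of 7 after its values were seen, was at 0.0829, 5.04 and 0.0631 FPKM in Control replicates 1 to 3 and 25.4, 10.2 and 8.38 FPKM in mutant replicates 1 to 3. The 3 samples with the most Matn1 (mutant replicate 1, Control replicate 2 and mutant replicate 2) were among the 4 with Oc90 above 1 FPKM, and mutant replicate 3 had Oc90 but the least Matn1. The summed level of the 7 otic markers was 94.8, 65.4 and 73.9 FPKM in Control replicates 1 to 3 and 117.6, 86.5 and 79.8 FPKM in mutant replicates 1 to 3. Most of this sum was Sox2 (61.0, 27.4 and 39.9 FPKM in Control replicates 1 to 3) and Dlx5 (29.7, 29.7 and 31.3 FPKM). Both are also in other lists, of forebrain progenitors and bone transcription factors, so the sum cannot track otic tissue alone. Among the controls, Otol1 and Otog were, like Oc90 and Matn1, highest in replicate 2 (0.0793 and 0.102 FPKM). Pax2 and Gata3 were instead highest in Control replicate 1 (0.495 and 3.40 FPKM), where Matn1 was lowest. The part of otic tissue in the Matn1 values was not tested.

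Of the bone transcription factors, Runx2 (chr17:44495987-44814797, minus strand) was at 11.3, 12.7 and 10.49 FPKM in the controls and 11.7, 7.91 and 10.1 FPKM in the mutants. Mutant replicate 2 was the lowest sample, while mutant replicate 1 lay inside the control range. The means were 11.5 ± 1.09 and 9.88 ± 1.89 FPKM (SD, n = 3 each), and the log2 difference was -0.21 (SE 0.14; limma, p = 0.179; exact permutation p = 0.3). In replicates 2 and 3 alone the log2 difference of Runx2 was -0.33 (limma, adjusted p = 0.448), with an unadjusted p under 0.05 as in 11.0% of all genes tested there. Sp7 (chr15:102356606-102367182, minus strand) was at 3.67, 6.17 and 3.79 FPKM in the controls and 4.66, 4.13 and 3.29 FPKM in the mutants. Control replicate 2 alone lay above all mutants, and the log2 difference was -0.12 (SE 0.21; limma with no filter, p = 0.581; exact permutation p = 0.7).

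Of the mineralization genes, Alpl (chr4:137741733-137796384, minus strand) was at 9.14, 14.3 and 9.93 FPKM in the controls and 10.3, 10.1 and 6.51 FPKM in the mutants. Mutant replicates 1 and 2 lay between the lower pair of controls and Control replicate 2, and mutant replicate 3 was below all samples. The means were 11.1 ± 2.79 and 8.95 ± 2.11 FPKM (SD, n = 3 each), and the log2 difference of -0.29 (SE 0.21; limma, p = 0.214; exact permutation p = 0.6) was the lowest among the 10 genes on this scale. Without Control replicate 2 it was -0.11, and without mutant replicate 3 it was -0.096.

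Ibsp (chr5:104299171-104311469, plus strand) had the lowest level of the set, at 0.0636, 0.770 and 0.393 FPKM in the controls and 0.0985, 0.282 and 0.0509 FPKM in the mutants. The mutant mean of 0.144 FPKM was 35.1% of the control mean of 0.409 FPKM, but Control replicate 1 lay among the mutants. The log2(FPKM + 1) difference of Ibsp was -0.28 (SE 0.19; limma with no filter, p = 0.191; exact permutation p = 0.3), a scale that understates the change of so low a gene. With a pseudocount of 0.1 in place of 1 the difference was -0.87. Without Control replicate 1 the p of Ibsp was 0.0251 (limma with no filter), with an adjusted p of 0.758. Leaving out that sample also raised the count of genes with an unadjusted p under 0.05 from 167 to 649, of 10061 that passed the filter. Its neighbour Spp1 (chr5:104435118-104441050, plus strand) was at 2.40, 4.18 and 2.44 FPKM in the controls and 3.78, 3.20 and 2.83 FPKM in the mutants. All mutants lay inside the control range, and the log2 difference was 0.11 (SE 0.20; limma with no filter, p = 0.588; exact permutation p = 0.6). Spp1 is also made by osteoclasts and macrophages, whose summed markers were at 20.8 to 23.6 and 39.0 to 47.6 FPKM in controls and 17.5 to 21.5 and 40.3 to 52.3 FPKM in mutants. The osteoclast sum was mostly Ctsk, with means of 16.2 FPKM in controls and 12.7 FPKM in mutants. Acp5 went the other way (2.80 and 4.10 FPKM), as did Calcr, Tnfrsf11a and, barely, Oscar, whereas Mmp9 and Ocstamp were lower in the mutants.

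The direction of the 10 genes differed between comparisons of same-numbered samples. The labels do not say what a number marks, so this matching of samples is a convention. Between the replicates 1, all 10 were higher in the mutant, with a median log2 difference of 0.22, from 0.04 for Runx2 to 1.65 for Matn1. Between the replicates 2, 9 were lower in the mutant with a median of -0.41, and the exception was Sox9, at 19.4 FPKM in both. Between the replicates 3, 9 were lower with a median of -0.22, and the exception was Spp1, which was 0.15 higher. Over all genes tested, 54.6%, 48.4% and 44.3% were lower in the mutant in these comparisons, with medians of -0.01, 0.01 and 0.02. Each comparison holds 1 sample per group, so these counts describe pairs of samples and have no replicate check.

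**Figure D2:**
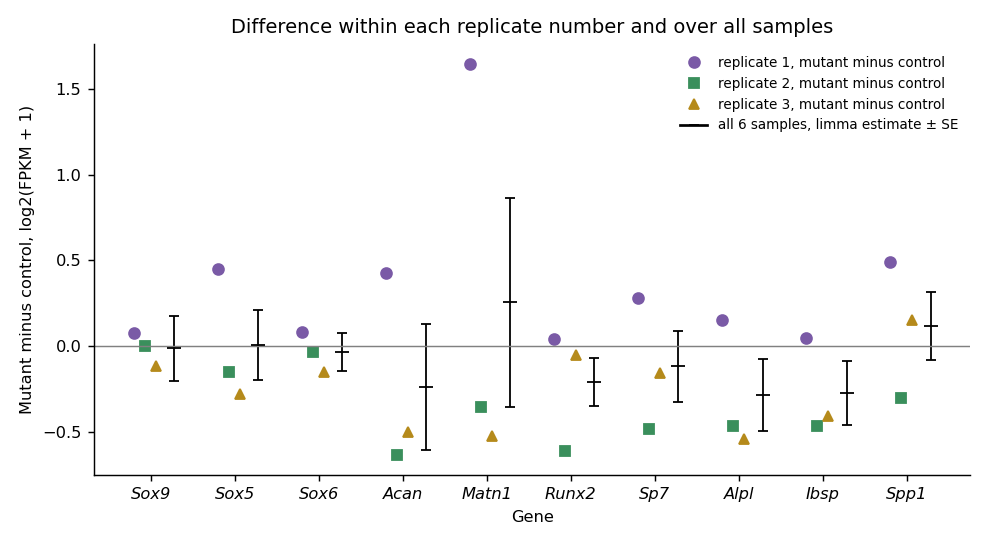
Mutant minus control log2(FPKM + 1) for each gene within each replicate number (coloured symbols) and over all 6 samples (black, limma estimate ± SE). Replicate 1 is above 0 for all 10 genes, whereas replicates 2 and 3 are mostly below it, and Matn1 in replicate 1 (1.65) is the farthest from 0.

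The first replicates of both groups deviated together from their group means (correlation 0.644). Mutant replicate 2 correlated more with Control replicate 3 (0.401) than with Control replicate 2 (0.258). The comparison was also fitted with the replicate number as a block, though the labels do not say what the number marks. The share of genes with an unadjusted p under 0.05 rose to 6.0% of 10061 genes (5.29% with no filter), and 0 of the 10 members were among them. The lowest blocked p values among members were 0.0709 for Ibsp and 0.0968 for Alpl.

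Control replicate 2 gave the highest value of 7 genes, namely Sox5, Acan, Runx2, Sp7, Alpl, Ibsp and Spp1, and was the highest sample for 21.1% of the genes tested and 26.7% of genes with a mean of 1 to 5 FPKM. Mutant replicate 3 gave the lowest value of 6 genes, Sox9, Acan, Matn1, Sp7, Alpl and Ibsp, and was the lowest sample for 12.0% of the genes tested. Without Control replicate 2 the median log2 difference of the members was 0.04, and without mutant replicate 3 it was 0.00087, so that the negative sign of the median rested on either sample. Control replicate 2 also held the highest summed skeletal muscle markers, 446 FPKM against 159 to 277 FPKM in the other samples, and the highest summed epithelial markers, 267 against 156 to 228 FPKM. It held the lowest summed forebrain progenitor markers, 370 against 527 to 667 FPKM, and the lowest erythroid markers, 5204 against 5775 to 11079 FPKM. Mutant replicate 3 had the highest erythroid sum, 11079 FPKM, with mutant replicate 1 (10578 FPKM) and Control replicate 1 (10541 FPKM) close to it. Neuron markers summed to 859 to 923 FPKM in controls and 993 to 1097 FPKM in mutants, with no overlap, and 4 of the 11 had an unadjusted p under 0.05, all higher, beside 1.66% of all genes tested. With the replicate block 7 of the 11 did, all higher, beside 6.0%. The part of tissue composition in the levels of the 10 genes was not tested, and in bulk tissue fewer cells of a type and less RNA per cell cannot be told apart.

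**Figure D3:**
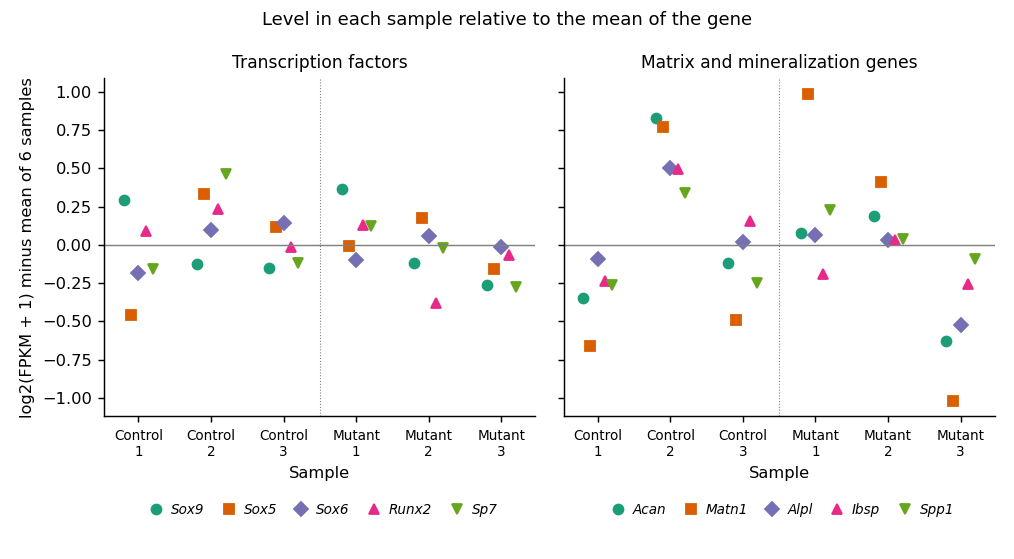
log2(FPKM + 1) of each gene minus its mean over the 6 samples, by sample, for the 5 transcription factors (left) and the 5 matrix and mineralization genes (right). Control replicate 2 lies above 0 for all genes but Sox9, mutant replicate 3 lies below 0 for all 10, and Matn1 and Acan spread the most.

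The profiles of the 5 members that passed the filter were compared with those of all genes tested, as the root mean square difference of centred log2(FPKM + 1) over the 6 samples. The most similar genes were Ids and Zfp865 for Sox9 (0.0246 and 0.0280), Ghr and AW551984 for Sox5 (0.0628 and 0.0695), and Nr2c2 and Ptgis for Sox6 (0.0174 and 0.0177). For Runx2 they were Zmym6 and Gli1 (0.0433 and 0.0573), and for Alpl they were Fibin and Loxl2 (0.0684 and 0.0804). No member was the closest match of another: the nearest pair among the 5, Sox5 and Sox6, differed by 0.171. With 6 samples these likenesses are descriptive.

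The 10 genes are part of 5 wider lists of 72 cartilage and bone genes, all of which were in the table. The filter was passed by 37, of which 28 were lower and 9 higher in the mutants. Their median log2 difference was -0.06, beside 0.0057 for all genes tested. At an unadjusted p under 0.05, 1 was called, Col1a1, which is 2.70% of the 37 beside 1.66% of all genes tested. With the replicate block 3 were called, Col1a1, Lox and Cbfb, all lower, which is 8.11% beside 6.0% of all genes tested, and with so few genes these shares are near the background. The split by replicate was also seen in list genes other than the members: of these 32, 24 were higher in the mutant between the replicates 1 (45.4% of all genes tested), and 27 were lower in replicates 2 and 3 together (45.7% of all genes tested). It was not particular to cartilage and bone genes, since of the 12 cranial mesenchyme markers that passed the filter 12 were higher between the replicates 1 and 11 were lower in replicates 2 and 3. Control replicate 2 was the highest sample for 24 of the 37.

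**Figure D4:**
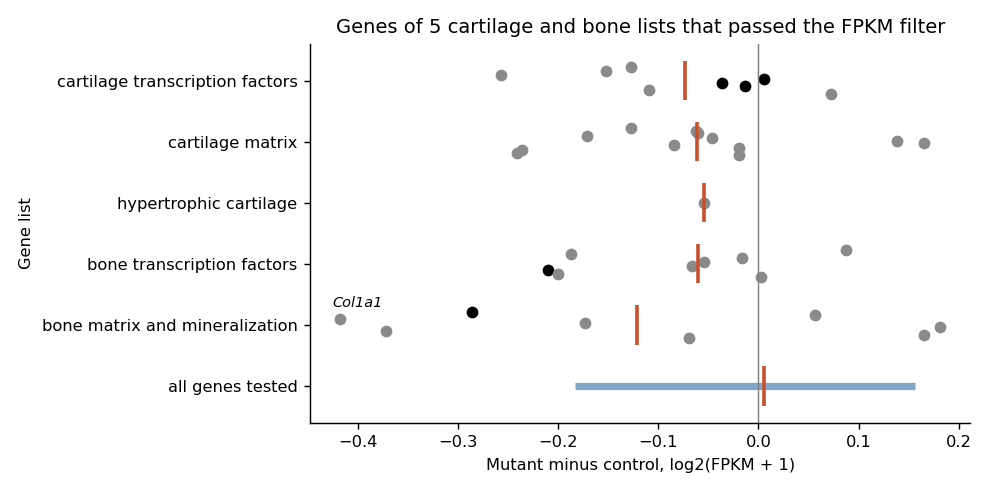
Mutant minus control log2(FPKM + 1) of the 37 list genes that passed the filter (members black, others grey), with list medians as red lines, and for all genes tested the 5th to 95th percentile (-0.18 to 0.16, blue) and median. The list medians lie between -0.12 and -0.05, and Col1a1, the one named point, is farthest to the left.

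Col1a1, which encodes the alpha 1 chain of type I collagen, the main collagen of bone and also of other connective tissue, was at 134.8, 162.1 and 123.3 FPKM in the controls and 112.7, 121.2 and 82.1 FPKM in the mutants. All mutant samples lay below all controls, as happened in either direction in 5.0% of all genes tested. The log2 difference was -0.42 (SE 0.17), which did not pass after adjustment over all genes and was negative between the replicates 1 (-0.26) as well as in replicates 2 and 3 (-0.50). Its partner chain Col1a2 averaged 283 ± 44.8 FPKM in controls and 249 ± 24.2 FPKM in mutants, with a log2 difference of -0.17 (SE 0.14), and the collagen-binding matrix protein gene Sparc averaged 278 ± 24.7 and 266 ± 36.1 FPKM, a difference of -0.07 (SE 0.12). The groups overlapped for both. The other gene of the bone matrix list whose groups did not overlap, Smpd3, a sphingomyelinase gene named here after its values were seen, was higher in the mutants, at 7.38 to 7.65 FPKM in controls and 8.06 to 9.30 FPKM in mutants, a log2 difference of 0.17 (SE 0.082) that did not pass the test.

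In the cartilage matrix list, Col2a1, the gene for type II collagen, averaged 121.2 ± 24.7 FPKM in controls and 116.9 ± 18.8 FPKM in mutants, a log2 difference of -0.05 (SE 0.17), and Col9a1, a type IX collagen gene, averaged 45.4 ± 13.9 and 48.5 ± 2.04 FPKM, a difference of 0.14 (SE 0.21). Both were higher in mutant replicate 1 than in Control replicate 1, by 0.36 and 0.61. Among transcription factors, the log2 difference was 0.07 (SE 0.12) for Zfp219, -0.15 (SE 0.095) for Barx1, 0.09 (SE 0.093) for Atf4, an activator of osteoblast genes, and 0.00215 (SE 0.12) for Twist1, a mesenchymal factor that restrains Runx2. None of these passed the test. Of the 5 hypertrophic cartilage genes, Pth1r, the receptor for parathyroid hormone and its related peptide, passed the filter (41.9 ± 3.26 and 40.3 ± 3.50 FPKM), and Panx3, next in level, was at 0.747 ± 0.274 and 0.924 ± 0.624 FPKM. Over the 5 lists, 15 of the 72 genes stayed under 1 FPKM in every sample, among them Ibsp and the hypertrophic collagen gene Col10a1, and Mepe was listed at 0.

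Below the filter, 34 list genes had a value above 0, and in the fit with no filter 2 of them had an unadjusted p under 0.05, in a fit where 2.87% of all genes did. These were Scrg1 and Epyc, singled out after their values were seen. Groups did not overlap for these and for the bone factor gene Runx3 (1.94 to 2.79 FPKM in controls and 1.41 to 1.77 FPKM in mutants), 3 of the 34 genes, beside 6.34% of all genes with a value above 0. Scrg1, a gene expressed in cartilage, was at 1.44, 1.48 and 1.20 FPKM in the controls and 0.787, 0.711 and 0.588 FPKM in the mutants. All mutants were lower than all controls, the log2 difference was -0.49 (SE 0.086), and its direction was the same between the replicates 1 (-0.45) and in replicates 2 and 3 (-0.51). Epyc, which encodes the small cartilage proteoglycan epiphycan, was at 3.85, 4.32 and 4.25 FPKM in the controls and 2.38, 3.48 and 3.02 FPKM in the mutants. The groups did not overlap, and the log2 difference was -0.39 (SE 0.14). Neither passed after adjustment over all genes.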

How the data were processed

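Poly(A)+ RNA of 3 Control and 3 mutant samples was sequenced as paired ends from stranded libraries. The authors' notes name FastQC 0.11.4, STAR, Cuffdiff and the GRCm38 genome, and the deposited values are FPKM per gene; the annotation release and the step that made the table are not given in the sources used here. The series table and the single-sample tables held the same values. The authors give an approximate range of reads per sample. FPKM keeps no read number per gene, so the counting error of each value is unknown. Values were transformed to log2(FPKM + 1) and compared in limma 3.58.1 (R 4.3.3) with an intensity trend, on the 10061 genes above 5 FPKM in all samples of either group, with Benjamini-Hochberg adjustment over them; members below the filter came from the same fit with no filter. Exact permutation tests were two-sided. Fold changes on this scale understate those of low genes. Deviations from group means of same-numbered samples correlated at 0.644, 0.258 and 0.513; differently numbered replicates 2 and 3 correlated as well (0.401 and 0.234), so mainly the first replicates stood apart, and a fit blocked on that number was added; this pairing comes from the values, not the labels. Positions are from GENCODE vM21 (GRCm38).

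The members and gene lists were chosen with earlier results of these data known. Genes named were the 10 members, Rbfox2, and from each wider list those with an unadjusted p under 0.05 that passed the filter and the 2 of highest mean FPKM; Lox, Cbfb, Smpd3, Runx3, Oc90, Scrg1, Epyc, Col10a1 and Mepe were named after their values were seen. Alternatives were a pseudocount of 0.1, filters of 1 FPKM or none, median ratio scaling, quantile normalization, no trend, covariates for Y-linked expression or the first replicates, replicates 2 and 3 only, and each sample left out.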

Additional observations from a re-analysis of the deposited data

How the results depend on the processing

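No member passed adjustment under any of 16 alternatives (lowest adjusted p 0.448), and of 160 member values 137 kept their direction and their side of the unadjusted threshold. The count of members with an unadjusted p under 0.05 was 0 except 1 with the Y-linked covariate (Alpl), 1 in replicates 2 and 3 only (Runx2), and 0 to 1 with a sample left out (Ibsp without Control replicate 1, Runx2 without mutant replicate 1). Genes over the whole table with an unadjusted p under 0.05 numbered 167, but 304 with an FPKM filter of 1, 663 with no filter, 604 with the replicate block, 611 with a term for the first replicates, 1103 in replicates 2 and 3 only, and 78 to 649 with a sample left out (649 without Control replicate 1, 413 without mutant replicate 1, 78 without Control replicate 2, 108 without mutant replicate 2). After adjustment there were 0, but 3 with the term for the first replicates, 4 in replicates 2 and 3 only, and 0 to 1 with a sample left out (1 without mutant replicate 3). The pairing by replicate number changed no call of a member. Calls it added in the wider lists (Lox, Cbfb) and in neuron markers are given in the report. Of the markers that passed the filter, it also took skeletal muscle from 0 to 6 of 8 (lower) and erythroid from 0 to 3 of 6 (higher). Epithelial markers went from 0 to 2 of 9 (lower) and osteoclast markers from 0 to 1 of 1 (lower). Over all genes tested the share went from 1.66% to 6.0%. With the Y-linked covariate, which rests largely on mutant replicate 3, the log2 difference turned to -0.16 for Sox5, -0.92 for Matn1 and -0.044 for Spp1, and in replicates 2 and 3 only it turned to -0.22, -0.44 and -0.075. With 1 sample left out the differences ran from -0.20 to 0.13 for Sox9, -0.22 to 0.17 for Sox5, -0.14 to 0.025 for Sox6, -0.47 to 0.11 for Acan, -0.18 to 0.83 for Matn1, -0.23 to 0.080 for Sp7, -0.33 to -0.073 for Runx2 (nearest 0 without mutant replicate 2), -0.40 to -0.096 for Alpl, -0.46 to -0.095 for Ibsp (nearest 0 without Control replicate 2) and 0.0094 to 0.31 for Spp1 (nearest 0 without Control replicate 1). The cause of these changes was not tested. The median of the members ranged from -0.33 to 0.04 over the alternatives. The unknown number of reads behind each value limits what can be said of Ibsp, Matn1 and Acan.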
